A study of Rattus norvegicus with 12 samples.

Results

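The genes described here were those whose lung mRNA was lower in silica-treated than in saline-treated rats at day 28 and showed little of that difference at day 14. They were chosen by measured values. Among the 1099 genes that the readable rows of the study's gene table name on the array, a member had no row in its protein table, fell by at least 1 on the log2 scale (2-fold) at day 28 and had a day 14 difference above -0.5 in the deposited normalized values, with the brightest probe taken for a gene. The rule left out several gene families, and by name some clock genes, haemoglobin genes and a few other single genes. Of all these, 11 genes met the limits, and without them 32 genes remained. Of the 1099 genes, 400 that had no protein row and were not left out fell by at least 1 at day 28. A day 14 difference of -0.5 or less was already present in 368 of them. Both differences chose the members, so their values at both days are a description and carry no test of their own.

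The arrays held lung RNA of 12 male Wistar rats, 1 array a rat, in 4 groups of 3. Silica-treated rats had received 1 mL of silicon dioxide at 50 mg/mL into the trachea, and control rats 1 mL of saline by the same route, with the lungs taken at day 28 or day 14. The study's methods describe rats of day 28 alone, and the labels' protocol text gives 28 days for every array. The day 14 groups therefore rest on the titles and time points of the labels, and sample titles give the dose as 50 mg/kg. The whole lung was the material, and the rats' age was not given in the sources used here. Per the study's methods, histology decided which lungs went onto the arrays, so they are not a random draw of the treated rats. Errors and p-values measure only the spread between the arrays that the labels number as replicates of a group. In whole lung, fewer cells of a type and less RNA per cell cannot be told apart.

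Crystalline silica that reaches the alveoli is taken up by macrophages, which cannot degrade it, and the lung answers with inflammation, nodules and fibrosis. Airway smooth muscle contracts when acetylcholine from vagal nerve endings binds muscarinic receptors, M3 through calcium release and M2 by opposing relaxation. The airway epithelium holds ciliated cells, whose axonemes carry radial spokes, and secretory cells rich in drug-metabolising enzymes, whereas alveolar type 2 cells make surfactant and several secreted proteases. Some members belong to these compartments, whereas others are chemosensory receptors or loci without a well described function.

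A log2 intensity is the brightness of a probe on the log2 scale after the 12 arrays were brought to one distribution, and a probe counts as measured on an array where the scanner software marked it well above background. Such probes made up 60.5% to 63.3% of each array on slide 1 and 64.6% to 69.5% on slide 2, where the slide is the one named in the header of each array's scan. Slide 1 held the 3 silica rats of day 28 and saline rat 1 of day 28, and slide 2 held the other 8 rats. All 32 members were measured in all 3 saline rats of day 28, which was enough to pass the filter on dim probes. In the silica rats of day 28, however, 17 were measured on all 3 arrays, 6 on 1 or 2 arrays (LOC498465, Chrm2, MGC116197, Trim71, Scrn1 and Foxp2) and 9 on none. For those 9 the fall is given only as a bound, written below as at least so many fold. It compares the saline mean with the silica readings, each raised, where lower, to the faintest reading marked well above background on its array. A given probe may need a brighter reading to be marked, and the bound leaves out the spread between rats. The true fall can therefore be smaller than the bound.

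Of the labelled tissue, 5 of 8 alveolar type 1 cell markers and 12 of 17 endothelial markers had a named probe, of which 5 and 11 were well above background in all 6 saline rats. None of the 8 alveolar type 2 cell markers had one. Between arrays of a group the correlation over all tested probes was 0.966 to 0.989.

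Probe sequences are shown first for the receptors, because they decide what the receptor values can mean. The probes of the odorant receptor genes Olr232 and Olr233 (Or2d2b and Or2d2 in RefSeq), both on chromosome 1, target nearly the same stretch. Shifted by 1 base, 54 of 59 aligned bases were identical, with the differing bases in capitals:
Olr232: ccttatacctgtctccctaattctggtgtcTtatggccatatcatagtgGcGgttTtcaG
Olr233: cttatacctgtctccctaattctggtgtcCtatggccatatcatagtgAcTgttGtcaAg
These were the only 2 member probes that shared over 11 bases in a row, and their longest shared run was 29 bases. RNA of one gene may bind both probes, so the values of the 2 genes are uncertain and may not be independent, although the rule counts them as 2 members. The muscarinic receptor probes, each 60 bases long and with no such partner among the members, were:
Chrm2, measured probe: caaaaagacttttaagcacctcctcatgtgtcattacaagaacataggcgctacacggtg
Chrm2, other probe: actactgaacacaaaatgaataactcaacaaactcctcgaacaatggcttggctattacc
Chrm3: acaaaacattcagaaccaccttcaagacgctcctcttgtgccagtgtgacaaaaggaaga

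As a whole, the members' median difference between silica and saline was -1.13 at day 28, with a range of -2.13 to -1.04, where the lowest value, that of LOC102547047, rests on silica readings at background. At day 14 the median was -0.29, with a range of -0.49 to 0.47. Over all 34097 tested probes these medians were -0.02 and -0.01. The 368 genes that fell at both days had medians of -1.26 and -1.04. At day 14 the difference was below 0 for 25 of the 32 members.

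**Figure D1:**
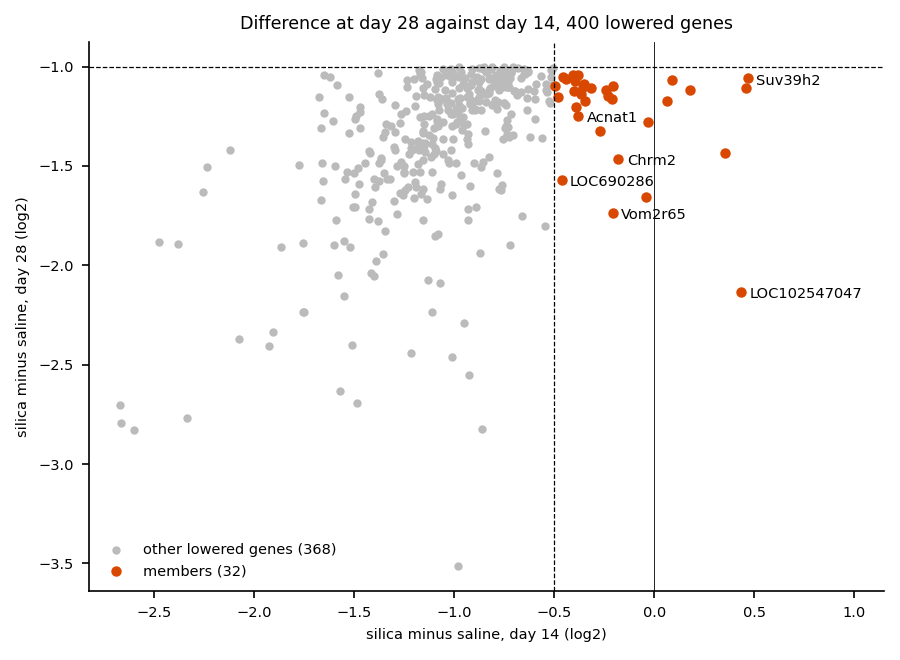
Each point is 1 of the 400 genes that fell by at least 1 at day 28, with its silica minus saline difference at day 14 on the x axis and at day 28 on the y axis, both as log2 of the deposited values; dashed lines are the limits of the rule. The 32 members (orange) form the sparse right edge of a continuous cloud, and most lie close to the day 14 limit or the day 28 limit.

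The members stood at the edge of the distribution and not apart from it. Just inside the day 14 limit were Olr232 (-0.49), Ctdspl (-0.48) and LOC690286 (-0.46), and just outside it Plagl1 (-0.51), Chrm4 (-0.51) and Frmd4a (-0.51). Just inside the day 28 limit were Olr233 (-1.04), Ptpdc1 (-1.04) and Pawr (-1.05). No gene lay just outside that limit, since the gene table itself holds folds of at least 2. With a day 14 limit of -0.25, 15 genes would remain.

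In the fit across all probes with limma, 30 of the 32 members were called lower at day 28 (adjusted p at most 0.05 and at least 2-fold), where 5.00% of all tested probes were, and the 2 not called were MGC116197 and Olr233. With the slide as a block, 10 members were called (2.70% of all probes), and with normexp background correction 3 were. All silica rats of day 28 and 1 saline rat shared slide 1. With the slide as a block, the day 28 difference therefore rests on that 1 saline rat. At day 14, 0 members were called in either direction against 5.64% of all probes. All 3 silica rats lay below all 3 saline rats for 32 members at day 28 (23.4% of all probes) and for 1 member at day 14, Ctdspl (18.7% of all probes). Because the rule used both contrasts, nothing is read from these counts or from the counts by role below. Those stand against the same shares of all probes. Leaving out 1 rat at a time, the count at day 28 was 20 without saline rat 2 or silica rat 1 of that day, 22 without saline rat 3, 24 without any other rat of day 28, and 29 to 31 without a rat of day 14. The members called in each of these fits were the 10 genes Acnat1, Chrm2, Ctdspl, Eya4, LOC102547047, LOC498152, LOC690286, Mmp28, Ptpdc1 and Rbm20, of which LOC102547047 and Rbm20 were not measured in any silica rat of day 28.

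No member passed the test of a change between days. The interaction, the day 28 difference minus the day 14 difference, was called by limma for 0 members and 0 of all 34097 probes (0%). At an unadjusted p under 0.05 it was negative for 21 members and for 4.57% of all probes, a direction fixed by the rule. Leaving out saline rat 1 of day 28, which leaves silica rats alone on slide 1, called 264 probes and 1 member, Ctdspl. A p that misses the threshold does not show that the 2 days had the same difference.

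**Figure D2:**
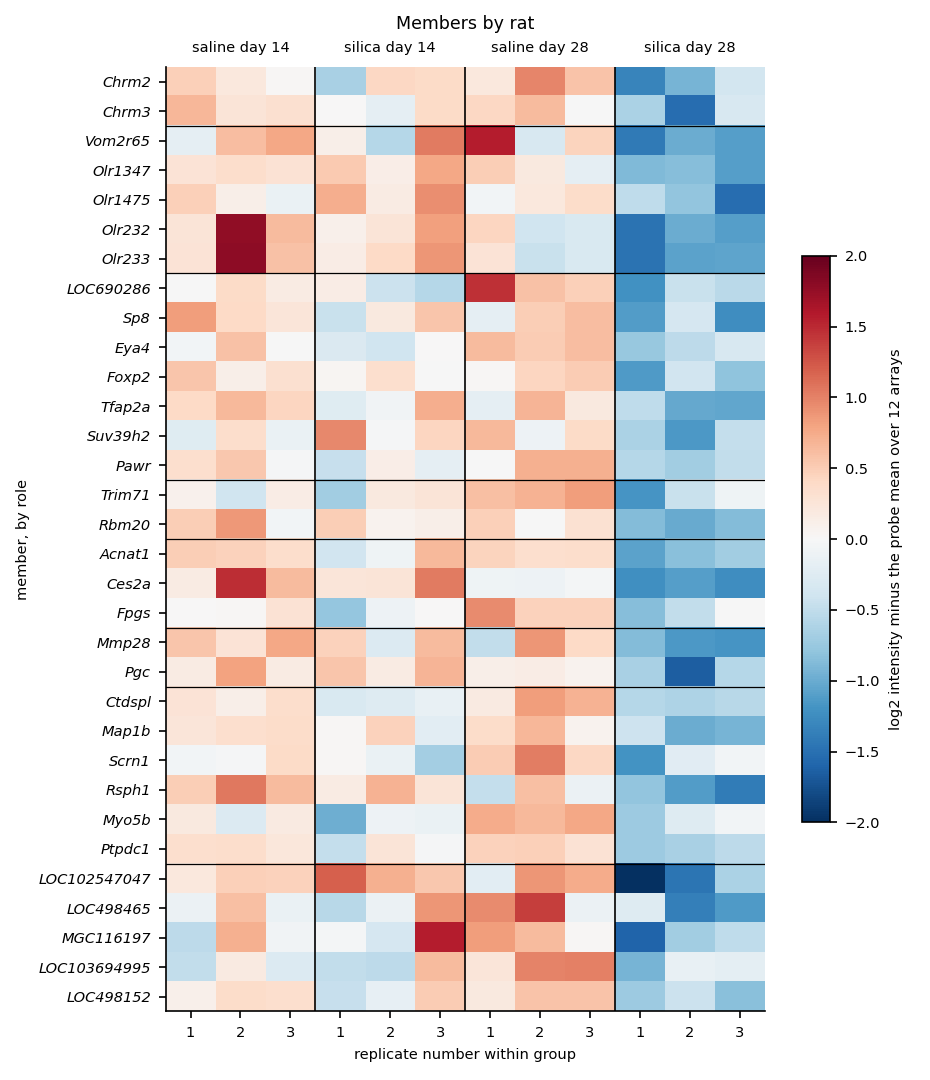
Each row is a member and each column a rat, coloured by the log2 intensity minus that probe's mean over the 12 arrays (red above, blue below), with members grouped by role. The 3 silica rats of day 28 are blue in nearly every row, while silica rats of day 14 vary, and saline rat 2 of day 14 is the highest of all 12 for Olr232, Olr233, Ces2a, Pgc and Rsph1.

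In every rat the members could be summed up by the median of their centred log2 levels. It was -0.87, -0.84 and -0.67 in the silica rats of day 28 and 0.39, 0.57 and 0.39 in the saline rats of that day. At day 14 it was 0.01, 0.02 and 0.47 in silica rats and 0.25, 0.37 and 0.29 in saline rats. The third silica rat of day 14 was thus above every saline rat of its day, and the other 2 below them. The 368 genes lowered at both days had a median of -0.39 in that rat. In the saline rats of day 14 their medians were 0.50, 0.40 and 0.59. In the first and second silica rats of day 14 they were -1.02 and -0.20. The rule itself split the 2 sets of genes by their day 14 difference, so nothing is read from the gap between them. Applied without silica rat 1 of day 14 the rule gave 84 genes, and without silica rat 3 of day 14 it gave 19, so the size of the set rests on these 2 rats.

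Markers of other cells moved between the same groups. The 9 of 19 macrophage markers with a named probe, such as Cd68, Trem2 and Gpnmb, had a summed intensity of 2459 to 4093 in saline rats of day 14 and 20153 to 31013 in silica rats of that day. At day 28 it was 2941 to 3390 in saline and 30574 to 39048 in silica rats. The 2 of 5 club cell markers, Cyp2f4 and Cyp2a3, summed to 274 to 436 in saline and 65 to 261 in silica rats of day 14. At day 28 these sums were 192 to 1059 in saline and 36 to 82 in silica rats. Every macrophage and club cell marker was well above background on at least 1 array. Neutrophil markers Lcn2 and Mmp9, 2 of 10, summed to 2028 to 3004 in saline and 33999 to 79807 in silica rats of day 14, and to 2485 to 5038 and 63684 to 74119 at day 28. The 3 of 8 erythrocyte markers summed to 18197 to 37168 in saline and 5848 to 12004 in silica rats of day 14. At day 28 they summed to 29618 to 71332 in saline and 2318 to 14546 in silica rats. Of 5 alveolar type 1 cell markers, 5 were called lower at day 28 and 3 at day 14, and of 3 fibroblast markers 2 were called lower and 1 higher at day 28. Of 12 endothelial markers, 12 were called lower at day 28 and 8 at day 14. A marker had to change at least 2-fold at day 28 to be named at all, so these counts at day 28 are nearly fixed by the naming. The summed intensity of the endothelial markers was 35145 to 42037 in saline and 11282 to 22378 in silica rats at day 14. At day 28 it was 45599 to 57296 in saline and 13031 to 24766 in silica rats. The part of cell composition in the members' values was not tested.

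Between the 2 days, members moved in different ways. In silica rats the median member was 0.96 lower at day 28 than at day 14, and 31 of 32 were lower. In saline rats the median member was 0.10 higher at day 28, with a range of -1.04 to 0.93. Silica day 28 against silica day 14 called 12 members lower, where 2.40% of all probes were, but every silica rat of day 28 was on slide 1 and every silica rat of day 14 on slide 2, so slide and day cannot be told apart in that comparison. Saline day 28 against saline day 14 called 0 members and 0 of all probes (0%), with 9 members and 3280 probes at an unadjusted p under 0.05.

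By the saline rats the members fell into 3 patterns. For 21 members the saline means of the 2 days were within 0.5, a limit chosen after the values were seen, as for Acnat1, Chrm3 and Pgc. For 7 members saline rats were higher at day 28 by over 0.5, namely Fpgs, LOC103694995, LOC498465, LOC690286, Myo5b, Scrn1 and Trim71, and their silica rats differed between days by a median of -0.30. For 4 members, Ces2a, Olr232, Olr233 and Rsph1, saline rats were lower at day 28 by 0.73 to 1.04. In 20 of the 32 members the 3 silica rats of day 28 lay below all the other 9 rats. The share of all probes with this pattern was not computed, and the rule favours it. Of the other rats, only saline rat 1 of day 28 shared slide 1 with them, so nothing is read from this count. The change of the saline rats was larger than that of the silica rats for 7 members (Eya4, Fpgs, LOC103694995, LOC690286, Myo5b, Scrn1 and Trim71), so for these probes more of the contrast between days lay in the saline rats.

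Muscarinic receptors were 2 of the members. Both were called lower at day 28, where 5.00% of all probes were, and neither with the slide as a block (2.70% of all probes). The rule chose them on this contrast. Chrm2, the M2 receptor, read 5.18, 5.95 and 5.54 in saline rats and 3.65, 4.03 and 4.60 in silica rats at day 28. At day 14 it read 5.44, 5.17 and 4.99 in saline and 4.32, 5.39 and 5.35 in silica rats. The groups were apart at day 28 and overlapped at day 14, with 1 silica rat of day 14 as low as those of day 28. The difference was -1.46 ± 0.32 at day 28 and -0.18 ± 0.32 at day 14 (n = 3 a group). Here and below, the error of a difference is the limma standard error. It pools the spread of all 4 groups and is therefore the same at both days. Only 1 of the 3 silica rats of day 28 was well above background for this probe, so the size of the day 28 difference is uncertain, and with normexp it was -0.48. The other Chrm2 probe was not well above background in any silica rat of day 28, and its day 14 difference of -0.93 was beyond the day 14 limit.

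Chrm3, the M3 receptor, read 4.57, 4.79 and 4.14 in saline rats and 3.52, 2.64 and 3.83 in silica rats at day 28. The silica rats were all lower, but none was well above background, and the bound is at least 1.09-fold lower, with measured means of 4.50 and 3.33. At day 14 the means were 4.57 and 4.22. Chrm4, the third muscarinic receptor named in the table, differed by -1.09 at day 28 and by -0.51 at day 14 and so missed the limit narrowly.

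Odorant and vomeronasal receptors, the chemosensory receptors of the nose that are also transcribed in some other tissues, supplied 5 members. Of these, 4 were called lower at day 28 (5.00% of all probes) and 2 with the slide as a block (2.70% of all probes). Olr232 read 8.83, 8.0 and 8.09 in saline rats and 6.92, 7.40 and 7.30 in silica rats at day 28. Its day 14 readings were 8.66, 10.18 and 9.03 in saline and 8.50, 8.66 and 9.22 in silica rats. Saline rat 2 of day 14 was the highest, and all day 28 silica rats were the lowest of the 12. The Olr233 probe, which shares most of its bases, read 8.82, 8.11 and 8.24 in saline rats and 7.08, 7.47 and 7.49 in silica rats at day 28, with the same rat highest among the 12. The difference at day 28 was -1.10 ± 0.37 for Olr232 and -1.04 ± 0.36 for Olr233.

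The probes of the other chemosensory receptors were not well above background in any silica rat of day 28. Olr1347 (Or9s23) read 5.64, 5.35 and 4.97 in saline rats and 4.26, 4.30 and 4.04 in silica rats at day 28, and 5.42, 5.50 and 5.44 against 5.68, 5.28 and 5.92 at day 14. Silica rats were thus all lower at day 28 and overlapped saline rats at day 14, with a bound of at least 1.93-fold lower at day 28 (means 5.32 and 4.20). Olr1475 (Or1e22) had means of 4.82 and 3.71 at day 28, at least 1.36-fold lower, and of 4.79 and 5.25 at day 14. Vom2r65, a vomeronasal receptor, had means of 5.60 and 3.87 at day 28, at least 2.34-fold lower, and of 5.44 and 5.24 at day 14. The second Vom2r65 probe, also not well above background in any silica rat of day 28, differed by -0.58 at day 14. The table named 8 Olr genes, 4 of them members, and 5 of the 8 differed by -1 or less at day 28. Every gene it named changed at least 2-fold at day 28, and the others, Olr1410, Olr417 and Olr956, rose. The family as a whole was therefore not lowered.

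Of the other G protein-coupled receptors in a list of 41, 16 had a named probe, and 15 of these were called lower at day 28 and 7 at day 14. Naming itself depended on a 2-fold change at day 28. Among them Vipr1, a receptor of vasoactive intestinal peptide, differed by -2.07 at day 28 and by -1.81 at day 14, and Ednrb, an endothelin receptor, by -1.48 and -1.27.

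Regulators of transcription and chromatin were the largest group, with 7 members. All 7 were called lower at day 28, where 5.00% of all probes were, but only 3 of them with the slide as a block, and 4 of the 7 were measured in all silica rats of that day. LOC690286, which RefSeq calls Hlf, encodes a PAR bZIP factor that binds D-box elements and is known for a daily rhythm. It read 8.82, 7.94 and 7.83 in saline rats and 6.14, 6.92 and 6.82 in silica rats at day 28. The day 14 readings were 7.35, 7.73 and 7.52 in saline and 7.50, 6.92 and 6.78 in silica rats. Saline rat 1 of day 28 was the highest of the 12, and 2 silica rats of day 14 were level with 2 of day 28. The difference was -1.57 ± 0.30 at day 28 and -0.46 ± 0.30 at day 14, and a second probe, not well above background in any silica rat of day 28, differed by -0.83 at day 14. Clock genes that the rule left out by name included Dbp, a PAR bZIP factor of the same family, at -1.11 at day 28 and 0.13 at day 14. The others were Per3 at -1.02 and 0.04, Nr1d2 at -1.41 and -0.29, Nr1d1 at -2.94 and -0.82, and Ciart at -1.54 and -2.09. Ciart thus differed more at day 14 than at day 28. Of the 8 other clock genes with a named probe, the 5 that the rule left out by name were called lower at day 28, and 1 of them, Ciart, at day 14. The other 3, Bhlhe41 (3.38 at day 28 and 3.12 at day 14), Bhlhe40 (1.09 and 1.30) and Nfil3 (1.04 and -0.03), were called higher at day 28, and 2 of them at day 14.

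Eya4, a transcriptional coactivator and phosphatase, read 6.86, 6.73 and 6.84 in saline rats and 5.46, 5.69 and 5.90 in silica rats at day 28, a difference of -1.12 ± 0.19. At day 14 it read 6.16, 6.80 and 6.22 against 5.93, 5.83 and 6.22. Suv39h2, a methyltransferase of histone H3 lysine 9, had means of 6.43 in saline and 6.90 in silica rats at day 14, and of 6.74 and 5.68 at day 28. Its day 14 difference of 0.47 ± 0.29 was the highest of all members and not called. Pawr, a pro-apoptotic partner of WT1, had differences of -1.05 ± 0.22 and -0.45 ± 0.22.

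Probes of the remaining factors were not well above background on every array. Foxp2, a repressor of lung epithelial genes, had means of 5.29 and 4.19 at day 28 and was measured in 1 silica rat of that day. Sp8, a zinc finger factor of limb and brain development, was at least 1.52-fold lower (means 4.97 and 3.77), and Tfap2a, the AP-2 alpha factor, at least 1.22-fold lower (means 4.66 and 3.57). At day 14 the differences of these genes were -0.21, -0.39 and -0.35, all above the day 14 limit.

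RNA-binding proteins were Trim71, a ubiquitin ligase and target of the let-7 miRNAs, and Rbm20, a splicing factor of titin transcripts. With the slide as a block 1 of the 2, Rbm20, was called at day 28, where 2.70% of all probes were. Trim71, measured in 1 silica rat of day 28, read 5.52, 5.62 and 5.75 in saline rats and 3.74, 4.48 and 4.84 in silica rats at day 28. Its saline rats of day 14 read 5.01, 4.52 and 5.07, level with 2 of the silica rats of day 28, and its day 14 difference was -0.03. Rbm20 was at least 1.46-fold lower at day 28 (means 4.92 and 3.75), and its day 14 means were 5.10 and 4.89.

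Metabolic enzymes gave 3 members, each well above background on all 12 arrays. With the slide as a block Acnat1 and Fpgs were called lower at day 28, where 2.70% of all probes were. Acnat1, a peroxisomal acyl-CoA amino acid N-acyltransferase, read 10.91, 10.79 and 10.82 in saline rats and 9.38, 9.63 and 9.76 in silica rats at day 28. On day 14 the values were 10.95, 10.92 and 10.81 in saline and 10.08, 10.37 and 11.11 in silica rats. The saline rats of both days were close to each other, and silica rats of day 14 ranged from below to above them. Acnat1 was 2.38-fold lower at day 28 (-1.25 ± 0.22) and differed by -0.38 ± 0.22 at day 14.

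Ces2a, a carboxylesterase that hydrolyses drugs and esters, read 7.81, 7.78 and 7.84 in saline rats and 6.66, 6.79 and 6.65 in silica rats at day 28. At day 14 the readings were 8.05, 9.36 and 8.53 in saline and 8.13, 8.15 and 8.92 in silica rats. The levels of both groups were higher at day 14 than at day 28. Fpgs, which adds glutamates to folate, read 6.94, 6.47 and 6.47 in saline rats and 5.16, 5.51 and 5.99 in silica rats at day 28, and its silica means of the 2 days were 5.71 and 5.55. Of the 19 other genes with a named probe in a list of xenobiotic and steroid metabolism, 17 were called lower and 1 higher at day 28, and 8 lower at day 14. Since only genes with a 2-fold change at day 28 were named, the number called at that day was nearly fixed.

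Secreted proteases were Mmp28 and Pgc, neither of them called with the slide as a block. Mmp28, the matrix metalloproteinase epilysin of epithelia, read 7.76, 9.14 and 8.66 in saline rats and 7.40, 7.11 and 7.09 in silica rats at day 28. Saline rat 1, on the slide of the silica rats, stood closest to them. The difference was -1.32 ± 0.33 at day 28 and -0.27 ± 0.33 at day 14. Pgc, progastricsin, an aspartic protease of stomach and alveolar type 2 cells, read 9.31, 9.35 and 9.26 in saline rats and 8.55, 7.54 and 8.62 in silica rats at day 28. Day 14 gave 9.36, 10.00 and 9.36 against 9.74, 9.36 and 9.88, with no direction. The day 28 difference of Pgc was -1.07 ± 0.28.

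**Figure D3:**
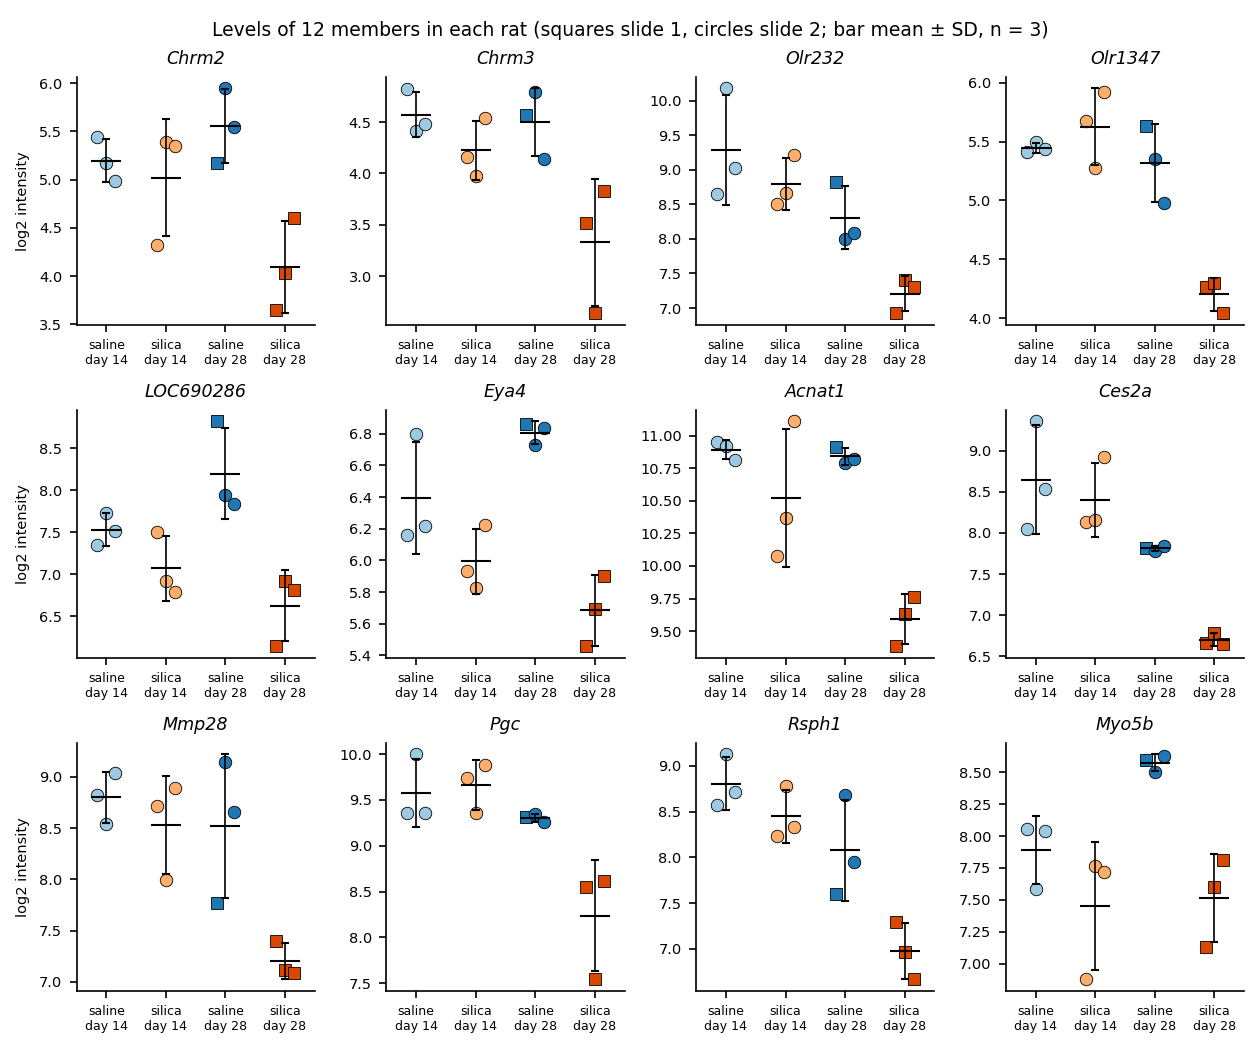
Log2 intensity of 12 members in each rat, by group (bar, mean ± SD, n = 3), with slide 1 as squares and slide 2 as circles. Acnat1, Ces2a and Pgc had tight saline groups at day 28 with all silica rats below them, Myo5b and Eya4 had their highest group mean in the saline rats of day 28, and the spread of silica rats at day 14 was wide for Chrm2 and Acnat1.

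Genes of cilia, cytoskeleton and phosphatases numbered 6. All 6 were called lower at day 28, where 5.00% of all probes were, but only 2 of them, Map1b and Ptpdc1, with the slide as a block. Rsph1, a radial spoke protein of motile cilia, read 7.60, 8.68 and 7.95 in saline rats and 7.29, 6.97 and 6.67 in silica rats at day 28. The rats of day 14 read 8.57, 9.13 and 8.71 in saline and 8.23, 8.78 and 8.33 in silica rats. The group means of day 28, saline and silica, were below those of day 14, and the day 28 difference was -1.10 ± 0.28. The other ciliated cell marker with a named probe, Cfap52, differed by -1.18 at day 28 and by -0.78 at day 14. Of the 15 other genes with a named probe in a list of airway secretory and ciliated cells, 13 were called lower at day 28 and 5 at day 14. Here too, being named required a 2-fold change at day 28.

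Ctdspl, a phosphatase of RNA polymerase II and RB, read 8.12, 8.78 and 8.63 in saline rats and 7.37, 7.33 and 7.38 in silica rats at day 28. At day 14 it read 8.21, 8.05 and 8.29 in saline and 7.63, 7.68 and 7.78 in silica rats. It was the only member with all 3 silica rats below all saline rats on both days, with a day 14 difference of -0.48 ± 0.16. Ptpdc1, a phosphatase linked to ciliary function, read 6.94, 6.96 and 6.77 in saline rats and 5.76, 5.83 and 5.96 in silica rats at day 28, and differed by -0.38 ± 0.16 at day 14.

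Myo5b, a myosin motor of recycling endosomes, read 8.60, 8.50 and 8.63 in saline rats and 7.13, 7.60 and 7.81 in silica rats at day 28. Its silica means of day 14 and day 28 were 7.45 and 7.51, and its saline means 7.89 and 8.58, so by this probe the contrast between days lay in the saline rats. A second Myo5b probe gave -1.22 at day 28 and -0.58 at day 14, with saline means of 7.53 at day 14 and 7.83 at day 28 and silica means of 6.95 and 6.60, so both group means differed between days there. Scrn1, secernin, linked to exocytosis and measured in 2 silica rats of day 28, had means of 5.99 and 4.86 at day 28 and a day 14 difference of -0.37. Map1b, a microtubule-associated protein of neurons, was at least 1.44-fold lower at day 28 (means 4.90 and 3.75), with a day 14 difference of -0.23.

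Of the 4 members with a second named probe (Vom2r65, LOC690286, Chrm2 and Myo5b), only Myo5b had a second probe measured in the silica rats of day 28. At day 14 the 4 second probes gave -0.93 to -0.58 and would all have missed the day 14 limit. The mean over a gene's probes gave 30 genes, 29 of them members.

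The remaining 5 members are loci without a well described function. None of the 5 was called with the slide as a block. LOC102547047 had readings of 4.46, 5.56 and 5.42 in saline rats and 1.76, 3.23 and 4.05 in silica rats at day 28. None of the silica readings of day 28 was well above background, and the bound was at least 1.71-fold lower. At day 14 its silica rats read 5.88, 5.39 and 5.22 and its saline rats 4.89, 5.15 and 5.15, all silica readings being the higher. LOC498465 (Dlgap5l2 in RefSeq), MGC116197, LOC103694995 and LOC498152 had day 28 differences of -1.66, -1.44, -1.17 and -1.11 and day 14 differences of -0.04, 0.35, 0.06 and -0.31. Of the silica rats of day 28, 1 was well above background for LOC498465 and 2 for MGC116197. The third silica rat of day 14 was the highest of its group for these 4, at 5.97, 6.94, 6.50 and 6.04.

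Of the 9 members not measured in the silica rats of day 28 (LOC102547047, Vom2r65, Sp8, Chrm3, Rbm20, Map1b, Olr1347, Olr1475 and Tfap2a), 1 had a bound of at least 2-fold and 8 a bound under 2-fold. Of the 17 measured in all 3 of those rats, 16 were called lower, where 5.00% of all tested probes were. The rule chose them for their fall at day 28, so nothing is read from this count.

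Differences within slide 1 varied in size among the members. Against saline rat 1, the saline rat of day 28 that shared slide 1 with the silica rats, the median member difference was -1.13, with a range of -2.74 to -0.56. The 3 silica rats lay below that rat for all 32 members, as they did for 39.8% of all probes, and 22 members differed by 1 or more. Against the 2 saline rats of slide 2 the median was -1.23. Saline rat 1 itself differed from those 2 by a median of 0.00 over the members, with a range of -1.14 to 1.51.

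With the slide as a block, 10 members were called lower at day 28, where 2.70% of all probes were. They were Acnat1, Eya4, Fpgs, LOC690286, Map1b, Olr1347, Ptpdc1, Rbm20, Suv39h2 and Vom2r65, and 6 of the 10 were measured in all silica rats of day 28. Within slide 1 the difference was -2.19 for LOC690286 and -1.32 for Acnat1, but -0.56 for Mmp28, -0.57 for Pawr, -0.62 for Rsph1 and -0.76 for Ctdspl. These values rest on 1 saline rat. For every member the day 28 difference with the slide as a block equalled this slide 1 difference. The calls above thus compare the silica rats with that rat alone, while their error pools all groups.

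**Figure D4:**
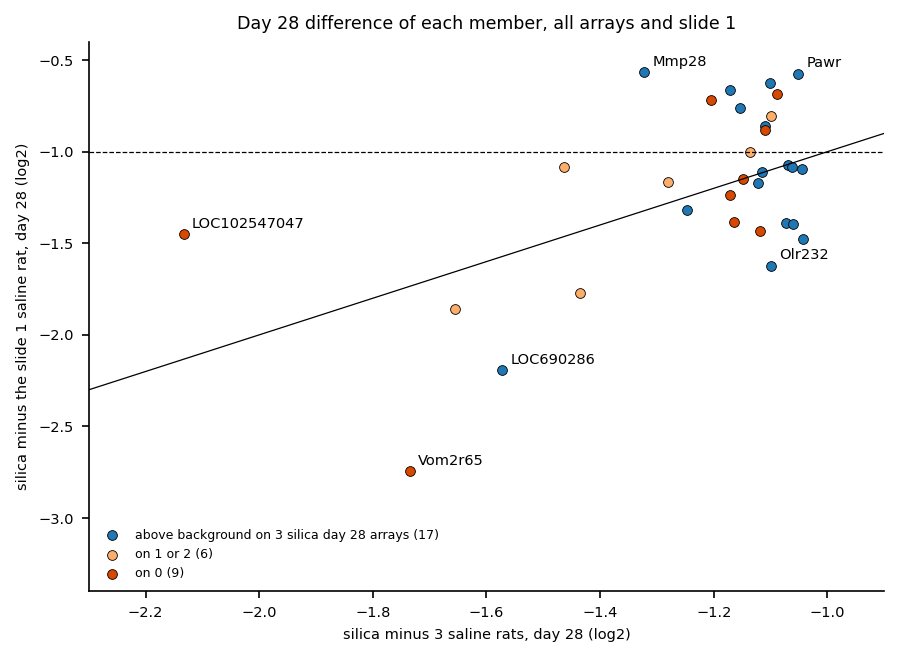
Each point is a member, with its day 28 difference against all 3 saline rats on the x axis and against the saline rat of slide 1 on the y axis (log2); the solid line marks equal values, the dashed line -1, and colours give the number of silica rats of day 28 in which it was well above background. All 32 points lie below 0 on both axes, and Mmp28, Pawr and 8 other members lie above -1 on the y axis.

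RefSeq promoters (assembly GRCr8, 300 bases around each gene's start) matched 22 of the 32 members. Searched on both strands, ACGTG, the hypoxia response core, was in 4 of 22 (18.2%) and in 19.3% of all 33469 promoters. The E-box CACGTG, which contains ACGTG, was in 1 (6.42% of all), the ETS motif CCGGAAG in 2 (8.75% of all), and the SOX motif ACAATGG in 2 (3.90% of all). The D-box TTATGTAA and the KLF motif GGGTGTGG were in 0 of 22, and in 0.893% and 3.22% of all promoters. No motif was shared by more than 4 members.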

How the data were processed

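Lung RNA of 12 rats was labelled with Cy3 and hybridised to Agilent 1-colour arrays. The authors' scanner files hold intensity values from Agilent Feature Extraction 10.7.1.1, and the deposited value table holds the authors' quantile-normalized log2 values, which chose the members. For everything else control and outlier spots were dropped, spots of a probe averaged, and log2 processed intensities quantile normalized over the 12 arrays. The 2 versions differed by a median of 0.0002. Probes well above background in all rats of at least 1 group were kept (34097). One limma 3.58.1 model (R 4.3.3) of 4 groups gave differences, standard errors and Benjamini-Hochberg adjusted p-values over all kept probes. On simulated data without a slide effect, the fit called 79% of changes of 1.5 and 94% of changes of 2 (log2) at day 28. It made 13 false calls, at an adjusted p of at most 0.05 without the 2-fold limit. Smaller changes, such as the members' median of -1.13, were not simulated.

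Gene names came from the study's gene table, of which 1279 rows were readable and 996 were not used here. RefSeq (GRCr8) gave 29 members a current symbol. Gene coordinates are not given, since the build of the names is not given in the sources used here. Genes were to be named as the largest falls of each gene list, the 10 largest falls of all, those next to each limit and those with disagreeing probes, and the remaining members were added so that every member is accounted for. The members and lists were chosen with earlier results of these data known. Alternatives were 75th percentile scaling, normexp background correction (offset 50), the authors' values, other filters on dim probes, slide or replicate number as a block, each day alone, the mean of a gene's probes and leaving out each rat. The number of arrays limits the precision: with 3 rats against 3, an exact two-sided permutation test cannot go below 0.1.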

Additional observations from a re-analysis of the deposited data

How the results depend on the processing

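The medians of the members kept their sign under every alternative that was run. At day 28 the rule nearly fixed that sign, so nothing is read from it. With normexp background correction, which adds 50 to each corrected intensity and so narrows the differences of dim probes, 3 members were called lower at day 28 in place of 30, the median change at day 28 was -0.57 and the median change from day 14 to day 28 in silica rats was -0.29. The rule itself then found 4 genes, 3 of them members. Using only probes above background on all 12 arrays, 17 members could be tested and all 17 were called, with a median change from day 14 to day 28 in silica of -0.62. An alternative added after seeing the data, with only the probes above background in all silica rats of day 28, called 16 and gave the same -0.62. With slide as a block 10 were called, and a day 14 limit of -0.25 left 15 genes. No member was called at day 14 under any alternative. A call needed at least 2-fold, and the rule admitted only genes with a smaller fall at day 14. The highest day 14 difference of a member, 0.47, was also short of 2-fold. The lack of calls at day 14, here and below, was thus nearly fixed in advance, so nothing is read from it. The interaction was called for no member except Ctdspl without saline rat 1 of day 28.

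Leaving out each rat in turn, 20 to 31 members were called lower at day 28, 0 at day 14, and 0 to 1 for the interaction, and the rule found 19 to 84 genes. The medians ranged from -1.23 to -1.11 at day 28, from -0.43 to -0.16 at day 14, from 0.03 to 0.14 between days in saline and from -1.07 to -0.76 in silica. Over all alternatives, the day 28 difference of a single member was given 657 times, 99 times without a call where the full data made one and 9 times with a new call. It never had the other sign, which the choice of members for a fall at day 28 nearly fixed in advance. The day 14 difference turned its sign 19 times of 657, and none of these was called.

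Whether the replicate numbers pair the rats was not settled. Deviations from the group means correlated at -0.237 to 0.237 for rats with the same number and at -0.209 to 0.286 for different numbers. With 3 rats a group these ranges cannot exclude pairing. A replicate block called 29 members at day 28, 0 at day 14 and 0 for the interaction, with medians of -1.13, -0.29, 0.10 and -0.96. No member was saturated. Of the members, 15 were not well above background on at least 1 silica array of day 28, and of the other 17, 6 were called with slide as a block.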
